A study of Mus musculus with 6 samples.

Results

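The genes described here are the protein-coding neighbours of Srrm2 on mouse chromosome 17. They are the protein-coding genes of the GRCm38 annotation that overlap the 500 kb on either side of Srrm2 (chr17:23290532-24324741). The rule leaves out Srrm2 itself and, although they lie inside the window, the claudin genes Cldn6 and Cldn9. The rule gave 40 genes, of which 39 were listed in the expression table of 42450 genes and 25 had enough counts to be tested. Ntn3, the netrin 3 gene, was not analysed here.

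The expression values come from total RNA-seq of mouse embryonic stem cells, with 3 libraries of the parental male line E14tg2a.4 (WT) and 3 of its gene-trap derivative CG0630 (Srrm2+/-). In CG0630, a gene trap truncates 1 Srrm2 allele in exon 1 and leaves the other intact. It is a single gene-trap line, so an effect of the lowered Srrm2 dose, a local effect of the inserted cassette and a property of the line cannot be told apart in these data. Both lines were grown on gelatin in GMEM with LIF and moved to serum-free ESGRO medium with LIF before collection. The replicates were frozen batches thawed separately, and the WT batches had been frozen at later passages than the Srrm2+/- batches, so passage and genotype cannot be told apart either. P-values therefore measure the spread between these thawed batches.

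SRRM2 is a large serine- and arginine-rich protein of nuclear speckles that takes part in pre-mRNA splicing. Genes that lie side by side on a chromosome can share regulatory elements, a promoter region or transcribed sequence, and a gene-trap cassette carries its own splice acceptor and selection marker into the locus it hits. The neighbourhood of Srrm2 mixes broadly used genes, such as those for an elongin subunit, a THO subunit and the kinase PDK1, with clusters of serine proteases and vomeronasal receptors that are mainly used in epithelia, testis and sensory tissue.

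A level is given as CPM, the depth-scaled count computed on TMM-scaled library sizes, with its SD over 3 libraries where a mean is printed. A fold change is the log2 difference of Srrm2+/- minus WT from edgeR's quasi-likelihood fit over all 18905 genes tested, with its standard error (SE), and a gene is called higher or lower at a Benjamini-Hochberg adjusted p under 0.05 over that whole table. Library totals ran from 54151433 to 58499765 estimated counts in WT and from 61022915 to 69933421 in Srrm2+/-. Srrm2 was measured at 91.2, 98.3 and 97.7 CPM in the WT libraries and at 62.3, 56.2 and 59.6 CPM in the Srrm2+/- libraries, a fold change of -0.69 (SE 0.05), or 62.0% of WT, with an edgeR adjusted p of 2.38e-05. The trapped gene was thus lower in every library labelled Srrm2+/-. The summed level of 8 embryonic stem cell markers lay between 5058 and 5241 CPM in WT and between 4426 and 4537 CPM in Srrm2+/-, with 5 of the 8 called lower and Utf1 called higher. In bulk RNA, fewer cells of a type and less RNA per cell cannot be told apart.

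Of the 25 neighbours tested, 6 were called higher and 6 lower in Srrm2+/- cells. Tnfrsf12a, the receptor of the cytokine TWEAK, rose to 3.37 times its WT level. Flywch2 and Prss41, both within about 12 kb of Srrm2, fell to 54.6% and 60.02% of WT. The kinase gene Pdpk1 fell to 73.4% of WT, and Mmp25, Bicdl2, Paqr4, Hcfc1r1 and Ccnf rose, while Elob, Tbc1d24 and Tedc2 fell. The called share was 48.0% of the neighbours tested against 25.3% of all genes tested, 29.2% of protein-coding genes and 28.7% of the protein-coding genes of chromosome 17. Over all genes, 13.6% were called higher and 11.7% lower, against 24.0% in each direction among the neighbours. The libraries of the 2 groups did not overlap for 12 neighbours, or 48.0%, against 41.4% of all genes tested. The median fold change of the neighbours was 0.01, against -0.0025 over all genes. Without Srrm2+/- replicate 3, 3 neighbours remained called higher and 4 lower.

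**Figure D1:**
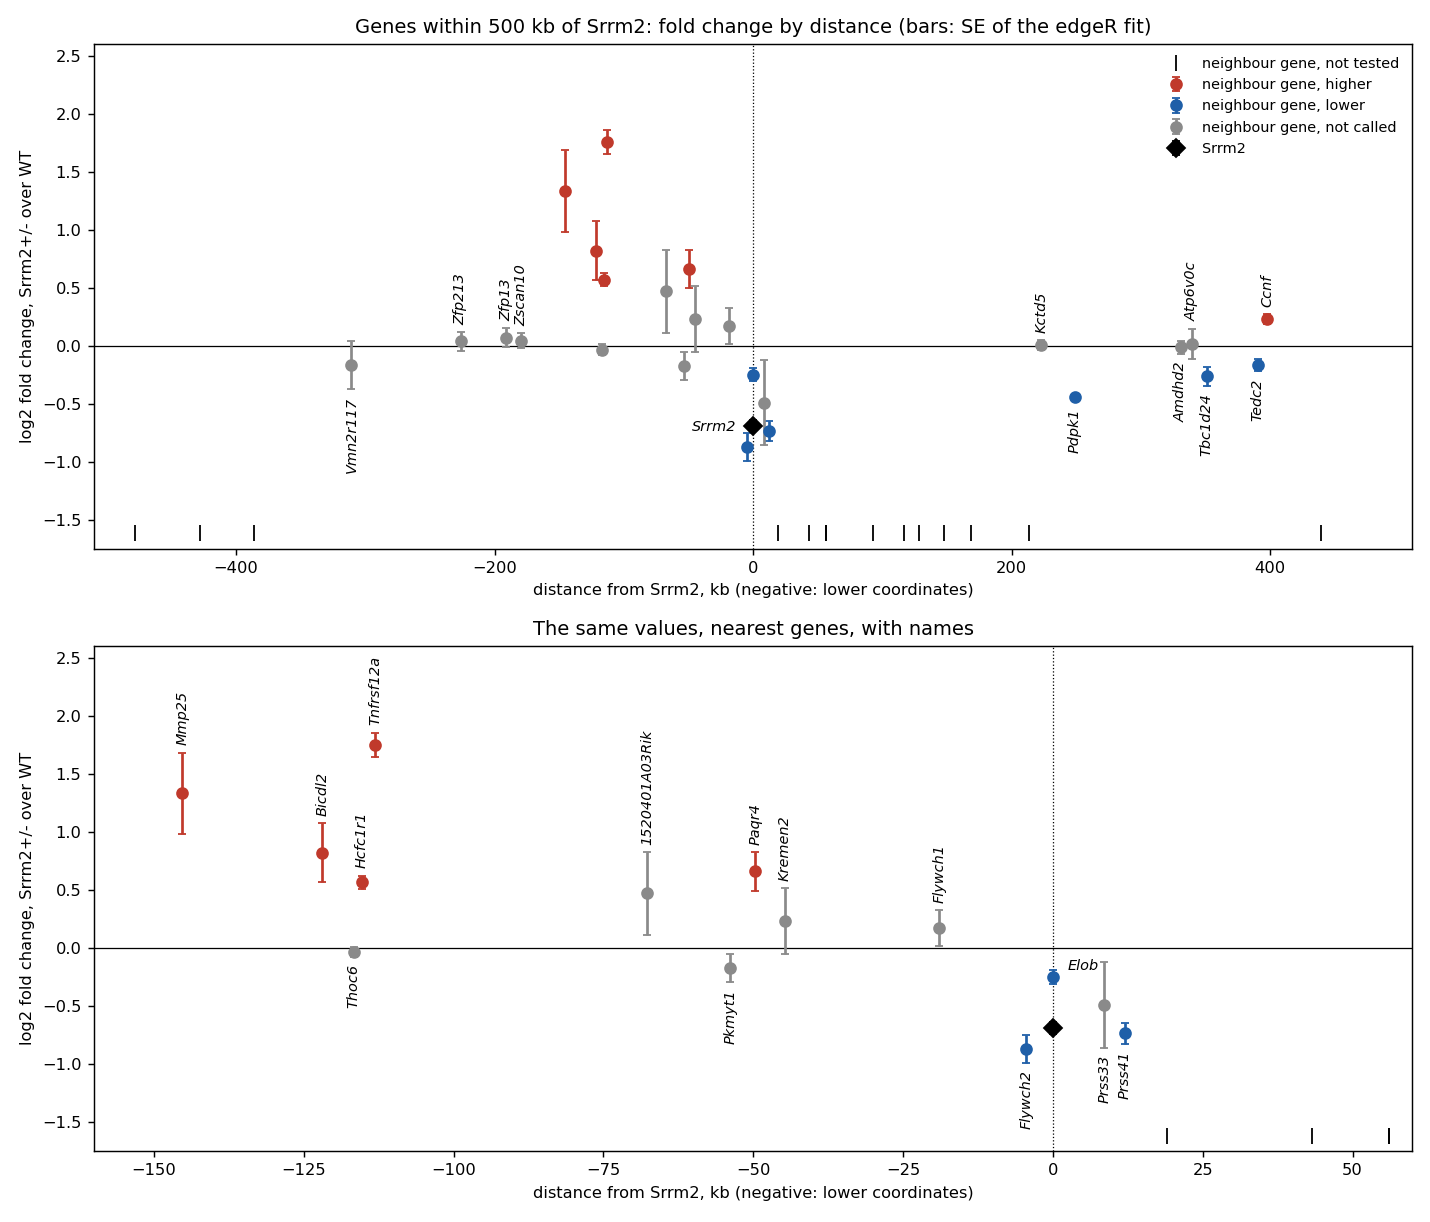
The log2 fold change of each tested neighbour (y axis, Srrm2+/- over WT) against its distance from Srrm2 in kb (x axis, negative toward lower coordinates), for the whole window above and the nearest stretch below; bars are SE, colours mark the edgeR call, ticks mark untested genes and the diamond is Srrm2. Genes called lower lie beside Srrm2 and on the higher-coordinate side, and the genes above 0.5 lie between 49.7 and 145 kb on the lower-coordinate side.

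The genes that flank Srrm2 most closely are on the other strand from it. Elob encodes elongin B, a ubiquitin-like subunit of the elongin complex and of cullin-RING ubiquitin ligases, and its last exon meets the end of Srrm2 with 4 shared bases. Flywch2 encodes a small FLYWCH-family protein, and its start lies 4.45 kb from the start of Srrm2. Prss41 encodes a serine protease best known from the testis. The stretches around the starts of these 3 lowered genes are shown as RefSeq gives them (GRCm38.p6, minus strand, written 5′ to 3′). Each runs from 250 bases before to 50 bases after the start. They were chosen because the genes were called lower and lie within about 12 kb of Srrm2. The starts of the uncalled Flywch1, Kremen2 and Prss33 (18.9, 44.7 and 45.5 kb from the Srrm2 start) are nearer than that of Prss41 (53.6 kb) and are not shown. The same holds for Paqr4, which was called higher (49.7 kb), and for the untested Prss32 (53.3 kb). Capitals mark matches on either strand to the GC box GGGCGG (35.7% of all 32851 promoter windows hold one), the CCAAT box CCAAT (37.4%) and the TEAD site GGAATG (14.7%).
Elob (chr17:23829060-23829359): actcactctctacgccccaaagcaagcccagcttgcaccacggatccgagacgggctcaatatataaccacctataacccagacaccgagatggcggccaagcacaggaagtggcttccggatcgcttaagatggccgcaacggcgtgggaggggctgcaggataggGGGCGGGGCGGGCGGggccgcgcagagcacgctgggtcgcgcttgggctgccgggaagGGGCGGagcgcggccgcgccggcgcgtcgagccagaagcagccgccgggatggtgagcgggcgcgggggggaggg
Flywch2 (chr17:23786032-23786331): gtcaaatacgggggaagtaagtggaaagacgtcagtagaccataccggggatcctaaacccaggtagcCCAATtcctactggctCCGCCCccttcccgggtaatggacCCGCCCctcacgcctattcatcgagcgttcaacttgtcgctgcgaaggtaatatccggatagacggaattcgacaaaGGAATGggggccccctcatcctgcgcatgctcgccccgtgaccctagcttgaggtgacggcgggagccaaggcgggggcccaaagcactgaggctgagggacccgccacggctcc
Prss41 (chr17:23844107-23844406): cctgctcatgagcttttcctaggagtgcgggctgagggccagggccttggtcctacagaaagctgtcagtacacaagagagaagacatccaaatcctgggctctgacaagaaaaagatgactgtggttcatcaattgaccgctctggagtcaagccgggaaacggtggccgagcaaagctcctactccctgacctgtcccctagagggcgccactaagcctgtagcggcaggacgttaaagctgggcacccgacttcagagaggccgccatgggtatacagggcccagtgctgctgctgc
The Elob window held 4 GC boxes, 3 of them in one overlapping or abutting run, and had a GC content of 69.7%. The Flywch2 window held 2 GC boxes, 1 CCAAT box and 1 TEAD match at 60.7% GC, and the Prss41 window held none of the motifs searched at 57.3% GC. The median GC content over all windows was 52.7%. A match describes letters and is no evidence of a bound factor. Matches to the TATA box TATAAA, the AP-1 site TGANTCA, the E-box CACGTG and the CArG box were also searched, and none of these 3 windows held one.

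Elob (chr17:23824738-23829136) stood at 189, 222 and 210.05 CPM in WT and at 178, 176 and 168 CPM in Srrm2+/-. Every Srrm2+/- library lay below the lowest WT library, by a margin smaller than the WT range. The fold change was -0.25 (SE 0.06) with an edgeR adjusted p of 0.0138, and the call was lost without Srrm2+/- replicate 3 (adjusted p 0.0579). Of the 31-base words of the Elob transcripts, 20.5% also occur in other genes, so part of its count depends on how reads were divided.

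Flywch2 (chr17:23776916-23786081) stood at 7.64, 8.84 and 8.40 CPM in WT and at 5.19, 3.96 and 4.42 CPM in Srrm2+/-. The groups were well apart, with a fold change of -0.87 (SE 0.12, 95% interval -1.15 to -0.60, edgeR adjusted p 0.000877). This was the lowest fold change of the 25 tested neighbours, and no 31-base word of its transcripts occurs in another gene.

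Flywch1 (chr17:23752793-23771602), the larger FLYWCH zinc finger gene next to it, stood at 4.87, 3.36 and 4.74 CPM in WT and at 4.74, 4.57 and 5.27 CPM in Srrm2+/-. The groups overlapped and the fold change of 0.17 (SE 0.15, 95% interval -0.18 to 0.52) was not called. The interval of Flywch1 lies above that of Flywch2, and the difference between them was not tested. The ends of the genes are 5313 bases apart. Of the Flywch1 exons, 25.1% overlap the antisense gene 9530082P21Rik, so its reads are uncertain there.

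Kremen2 (chr17:23741197-23745833), a Dickkopf co-receptor in WNT signalling, was low, at 0.559, 0.761 and 0.541 CPM in WT and 0.939, 0.522 and 0.729 CPM in Srrm2+/-. Its groups overlapped and its fold change of 0.23 (SE 0.28) was not called. It also shares 200 exonic bases with 9530082P21Rik.

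On the Elob side, Prss33 (chr17:23833347-23836056), a serine protease gene 8.61 kb from Srrm2, was near the limit of detection at 0.270, 0.363 and 0.299 CPM in WT and 0.275, 0.145 and 0.243 CPM in Srrm2+/-. The groups overlapped and the fold change of -0.49 had an SE of 0.37, so a change of the size seen in its neighbour Prss41 was not detectable at this depth. Prss41 (chr17:23836785-23844172), which is separated from Prss33 by 728 bases, stood at 9.23, 9.60 and 9.48 CPM in WT and at 5.79, 6.03 and 5.15 CPM in Srrm2+/-. Each Srrm2+/- library lay far below the narrow WT range, and the fold change was -0.74 (SE 0.09, 95% interval -0.94 to -0.53, edgeR adjusted p 0.000438). Per kb of exon, Prss41 was the higher of these proteases in WT at 3.57 CPM, against 0.174 CPM for Prss33.

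The serine proteases form the largest family of the window, with 7 genes, of which only Prss33 and Prss41 were tested. Prss32, Prss21, Prss22 and Prss27 had between 2 and 30 counts summed over all 6 libraries, and Prss30 had none. Of the 4 vomeronasal receptor genes, which encode pheromone receptors, Vmn2r114, Vmn2r115 and Vmn2r116 had no counts, while Vmn2r117 ranged from 0.997 to 1.57 CPM over the 6 libraries with a fold change of -0.17 (SE 0.21), not called. Its transcripts share 30.6% of their 31-base words with other genes, chiefly other vomeronasal receptors. Dcpp1, Dcpp3, Sbp and Sbpl, which encode secreted proteins of glands, also had no counts, and Dcpp2 and the transporter gene Abca17 had 1 count each. For the 8 genes without a count, 3 counts in a library correspond to between 0.0433 and 0.0560 CPM, the level that a count of 0 still allows.

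The zinc finger and FLYWCH group had 5 genes, all tested. Flywch2 was the 1 called among them, while 25.3% of all genes tested were called, so the count is near that share. Zscan10, a zinc finger factor of embryonic stem cells, ranged from 32.7 to 37.5 CPM with a fold change of 0.04 (SE 0.06). Zfp13 ranged from 16.7 to 21.2 CPM with a fold change of 0.07 (SE 0.08). Zfp213 ranged from 9.82 to 11.2 CPM with a fold change of 0.04 (SE 0.08), and 46.5% of its exons overlap the non-coding gene Gm26695 on the other strand, so its reads are uncertain. The groups overlapped for all 3, and the 95% intervals ran from -0.10 to 0.19 for Zscan10, from -0.11 to 0.25 for Zfp13 and from -0.15 to 0.22 for Zfp213.

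The stretch from 113 to 145 kb on the lower-coordinate side held 5 tested neighbours, of which 4 were called higher, against 13.6% of all genes tested. Its limits were drawn after the values were seen, at called genes, so the count is a description. Tnfrsf12a and Hcfc1r1 face each other there with 217 bases between their ends, and Hcfc1r1 and Thoc6 start from one region in opposite directions with 287 exonic bases in common. Hcfc1r1 encodes a small protein that binds and regulates the host cell factor HCF-1, and Thoc6 encodes a subunit of the THO complex, which couples transcription to mRNA export. The starts of these genes are shown because Tnfrsf12a and Hcfc1r1 rose while Thoc6, on the shared region, was not called. The windows are from the same source, with the same motifs in capitals.
Tnfrsf12a (chr17:23677400-23677699, minus strand): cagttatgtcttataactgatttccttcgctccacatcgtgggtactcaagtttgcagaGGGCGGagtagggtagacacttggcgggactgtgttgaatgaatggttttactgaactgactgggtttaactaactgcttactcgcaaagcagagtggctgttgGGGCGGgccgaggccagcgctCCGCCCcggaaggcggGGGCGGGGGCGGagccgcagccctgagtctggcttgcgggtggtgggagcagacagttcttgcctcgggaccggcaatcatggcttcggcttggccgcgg
Hcfc1r1 (chr17:23673358-23673657, plus strand): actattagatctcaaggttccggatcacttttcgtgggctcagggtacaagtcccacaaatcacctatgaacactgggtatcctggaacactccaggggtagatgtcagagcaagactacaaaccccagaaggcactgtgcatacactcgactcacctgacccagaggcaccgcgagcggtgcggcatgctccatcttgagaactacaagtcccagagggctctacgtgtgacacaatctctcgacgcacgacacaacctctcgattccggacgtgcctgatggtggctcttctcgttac
Thoc6 (chr17:23673828-23674127, minus strand): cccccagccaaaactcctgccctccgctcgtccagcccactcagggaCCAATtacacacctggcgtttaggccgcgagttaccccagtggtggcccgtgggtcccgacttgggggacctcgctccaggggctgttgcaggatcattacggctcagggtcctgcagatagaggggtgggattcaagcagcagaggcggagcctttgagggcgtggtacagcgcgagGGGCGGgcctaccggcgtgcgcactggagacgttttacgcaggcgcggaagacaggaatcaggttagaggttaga
The Tnfrsf12a window held 5 GC boxes at 59.7% GC. The Hcfc1r1 window held none of the motifs searched at 53.7% GC, and the Thoc6 window held 1 GC box and 1 CCAAT box at 63.3% GC. No promoter window of any neighbour held a match to the AP-1 site, which 7.81% of all windows hold, or to the CArG box, which 1.63% hold. Of the 39 listed neighbours, 36 had a window in the RefSeq table.

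Tnfrsf12a (chr17:23675445-23677468) stood at 5.42, 7.01 and 6.37 CPM in WT and at 23.3, 20.05 and 20.02 CPM in Srrm2+/-. Every Srrm2+/- library was far above the highest WT library, and the fold change of 1.75 (SE 0.10, 95% interval 1.52 to 1.99), with an edgeR adjusted p of 7.13e-06, was the highest of the tested neighbours. No 31-base word of Tnfrsf12a occurs in another gene. Tnfrsf12a is also active in fibroblasts, and the summed level of 6 fibroblast markers went from between 3.47 and 3.68 CPM in WT to between 6.94 and 10.8 CPM in Srrm2+/-, with 4 of the 6 called higher (Col1a1, Col1a2, Col3a1 and Postn). Thy1, the most abundant of the 6 in WT, went from 1.93 to 1.19 CPM (fold change -0.70, SE 0.27) and was not called, and neither was Pdgfrb (0.23, SE 0.34). Their part in the Tnfrsf12a values was not tested.

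Cldn6 and Cldn9, the claudin genes of tight junctions that the rule leaves out, lie between Tnfrsf12a and Srrm2. They were also called higher, with fold changes of 1.38 (SE 0.23) and 1.01 (SE 0.20).

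Hcfc1r1 (chr17:23673596-23675227) stood at 13.1, 13.8 and 13.1 CPM in WT and at 20.5, 19.4 and 19.4 CPM in Srrm2+/-. Both groups were narrow and far apart, with a fold change of 0.57 (SE 0.06, 95% interval 0.44 to 0.69, edgeR adjusted p 0.000135). Thoc6 (chr17:23668614-23673882) ranged from 37.8 to 39.7 CPM in WT and from 37.1 to 39.3 CPM in Srrm2+/-, with a fold change of -0.03 (SE 0.05, 95% interval -0.14 to 0.07). The groups of Thoc6 overlapped and it was not called. Of the Hcfc1r1 exons, 30.0% lie in the overlap with Thoc6, and the strand setting of the counting was not given in the sources used here, so reads in the overlap could have gone to either gene.

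Bicdl2 (chr17:23660506-23668621), which encodes an adaptor related to the dynein adaptor Bicaudal D, ends 8 bases inside Thoc6. It stood at 0.829, 0.554 and 0.523 CPM in WT and at 0.910, 1.13 and 1.33 CPM in Srrm2+/-. The groups were separated by a small gap, with a fold change of 0.82 (SE 0.25) at an edgeR adjusted p of 0.0447. The call was lost without replicate 2 or replicate 3 of either group, with adjusted p from 0.102 to 0.153, and with DESeq2 (adjusted p 0.0671).

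Mmp25 (chr17:23628311-23645277), a membrane-anchored matrix metalloproteinase known from leukocytes, stood at 0.829, 0.536 and 0.317 CPM in WT and at 1.20, 1.13 and 1.93 CPM in Srrm2+/-. The groups did not overlap but each spread widely, and the fold change of 1.33 (SE 0.35, 95% interval 0.53 to 2.13), with an edgeR adjusted p of 0.0230, is correspondingly imprecise. Without WT replicate 2, WT replicate 3 or Srrm2+/- replicate 3 the adjusted p was 0.0699, 0.0555 and 0.0908.

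Between these genes and Srrm2, Paqr4 and Pkmyt1 lie tail to tail. Paqr4 (chr17:23736186-23740867), a multi-pass membrane protein of the progestin and adiponectin receptor family, stood at 2.50, 1.66 and 2.05 CPM in WT and at 3.37, 3.26 and 3.19 CPM in Srrm2+/-. All 3 Srrm2+/- libraries lay above the WT range, and the fold change was 0.66 (SE 0.17, edgeR adjusted p 0.0185). Leaving out any 1 Srrm2+/- library moved the adjusted p to between 0.0502 and 0.0567. Pkmyt1 (chr17:23726336-23736735), the membrane kinase that holds CDK1 inactive, ranged from 5.77 to 7.92 CPM in WT and from 5.93 to 6.14 CPM in Srrm2+/-, with a fold change of -0.18 (SE 0.12), not called. The pair shares 319 exonic bases on opposite strands, so their counts are uncertain there. The uncharacterised gene 1520401A03Rik ranged from 0.357 to 0.925 CPM over the 6 libraries, with a fold change of 0.47 (SE 0.36), not called.

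**Figure D2:**
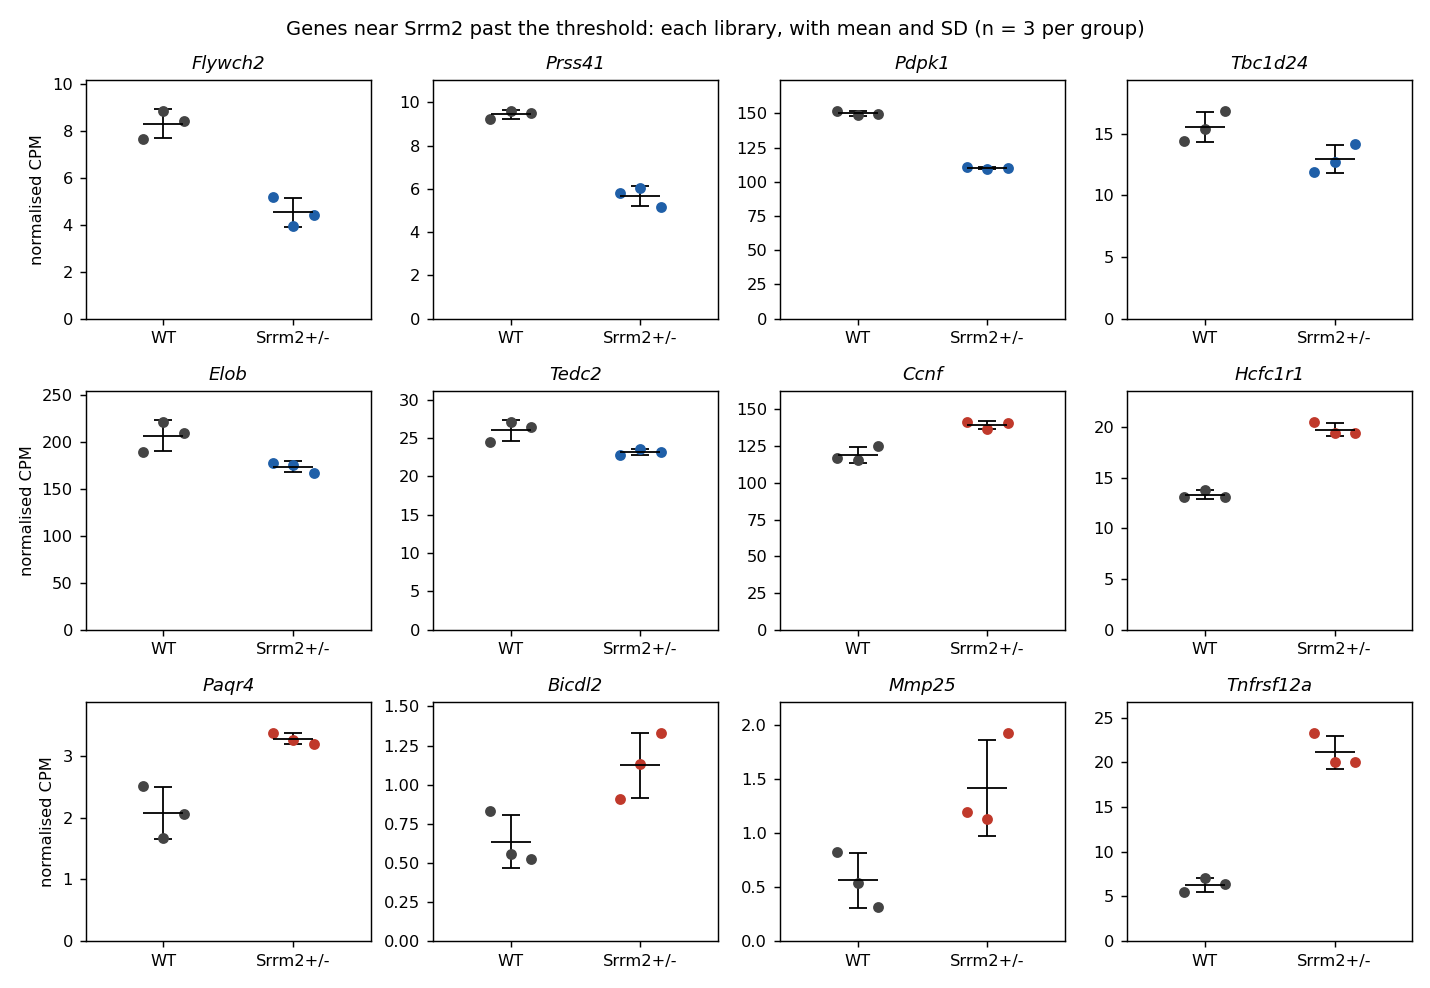
CPM (y axis, from 0) of the 12 called neighbours in each library, with WT in grey and Srrm2+/- in colour; the long line is the mean and the bars are the SD of 3 libraries. The groups do not overlap in any panel, with the widest separation relative to the spread for Pdpk1, Prss41, Hcfc1r1 and Tnfrsf12a and the least for Bicdl2 and Tbc1d24.

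On the higher-coordinate side, no protein-coding gene between Prss41 and Kctd5 was tested, a stretch of 204 kb whose protein-coding genes are proteases and secreted proteins. At its far edge, Kctd5 (chr17:24047734-24073485), an adaptor of CUL3 ubiquitin ligases, ranged from 57.0 to 59.4 CPM in WT and from 57.0 to 60.03 CPM in Srrm2+/-. Its fold change was 0.00 (SE 0.04, 95% interval -0.09 to 0.09), one of the tightest bounds of the window. Pdpk1 (chr17:24073680-24150924) lies 194 bases from Kctd5 on the same strand and encodes PDK1, the kinase that phosphorylates the activation loop of AKT, S6K and SGK. It stood at 152, 149 and 149.75 CPM in WT and at 111, 109 and 110.00 CPM in Srrm2+/-. The replicates of both groups lay within a few CPM of each other, and the fold change was -0.45 (SE 0.03, 95% interval -0.52 to -0.37, edgeR adjusted p 2.97e-05).

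Of 10 other kinases and adaptors of the PDK1 and mTOR pathway, 3 were called higher and 2 lower. That is 50% of the list, against 25.3% of all genes tested, and the difference was not tested. The median fold change of the list was 0.0014 against -0.0025 over all genes. The kinase genes called higher were Akt1 at 0.40, Akt2 at 0.22 and Rps6ka1, which encodes the ribosomal S6 kinase RSK1, at 0.37. The serum- and glucocorticoid-regulated kinase genes Sgk1 and Sgk3 fell, at -0.42 and -0.45. Rps6kb1, Rps6ka3, Mtor, Rictor and Mlst8 were not called by edgeR, with fold changes from -0.42 to 0.09, while DESeq2 called Mlst8 (adjusted p 0.0245). Mlst8 itself lies 648.8 kb from Srrm2, so it is also among the flank genes described below.

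Beyond Pdpk1, Amdhd2 (chr17:24155833-24163766), an enzyme of the hexosamine pathway, ranged from 25.2 to 28.4 CPM over the 6 libraries with a fold change of -0.01 (SE 0.06). Atp6v0c (chr17:24163866-24169702), which encodes the proton-carrying ring subunit of the V-ATPase, ranged from 26.4 to 39.3 CPM with a fold change of 0.01 (SE 0.13). Neither was called and both groups overlapped. The low Atp6v0c value came from WT replicate 1, and without that library its fold change was -0.14 (adjusted p 0.215). None of the other 13 V-ATPase subunits examined was called by edgeR, DESeq2 or limma voom, while edgeR called 25.3% of all genes tested. With these tools, 4, 3 and 4 of the subunits were at an unadjusted p under 0.05, and their median fold change was 0.01.

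Tbc1d24 (chr17:24175431-24205562), a TBC-domain protein of vesicle traffic, stood at 14.5, 15.4 and 16.9 CPM in WT and at 11.9, 12.7 and 14.2 CPM in Srrm2+/-. The highest Srrm2+/- library was just under the lowest WT library, and the fold change of -0.27 (SE 0.08) had an edgeR adjusted p of 0.0478. Leaving out WT replicate 2 or 3 or Srrm2+/- replicate 1 or 2 gave adjusted p from 0.102 to 0.156. Tedc2 (chr17:24215054-24220851), a protein of the centriolar tubulin epsilon and delta complex, stood at 24.5, 27.1 and 26.4 CPM in WT and at 22.8, 23.5 and 23.2 CPM in Srrm2+/-. Its groups were close, with a fold change of -0.17 (SE 0.05) at an edgeR adjusted p of 0.0498. The Tedc2 call was lost without any 1 library other than WT replicate 1, with adjusted p from 0.0923 to 0.170, and with DESeq2 (0.0789), limma voom (0.0597) and upper quartile scaling (0.0556). For Tbc1d24, limma voom gave 0.0510 and upper quartile scaling 0.0506.

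Ccnf (chr17:24222198-24251484) encodes cyclin F, the F-box protein of a ubiquitin ligase that acts late in the cell cycle. It stood at 117, 115 and 125 CPM in WT and at 141, 137 and 141 CPM in Srrm2+/-. The Srrm2+/- libraries were all above the WT range, and the fold change was 0.23 (SE 0.04, 95% interval 0.13 to 0.33, edgeR adjusted p 0.00449). Ccnf was the only called neighbour on the higher-coordinate side that rose. Together with Elob and Tedc2, which fell, and Kctd5 and Pkmyt1, which were not called, it makes up the ubiquitin ligase and cell cycle group of 5.

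Genes outside the window that work with products of the neighbours, or with Rnps1, which itself lies outside the window, were read from lists. Of the 7 partners of elongin B, 3 were called lower, namely Vhl at -0.19, Cul2 at -0.18 and Cul5 at -0.16, and the 4 others, among them Eloc at 0.01, were not called. With DESeq2 the Vhl call was lost (adjusted p 0.0674). Of the 9 THO and TREX subunits that work with Thoc6, Poldip3 was called higher at 0.17 and Thoc2 lower at -0.23. Of 8 genes of CDK1 and its control examined beside Pkmyt1, the polo-like kinase gene Plk1 was called higher at 0.45 by edgeR, and DESeq2 also called Cdk1 (0.13, adjusted p 0.0465). Of the 8 partners of the splicing co-factor Rnps1, whose gene lies 589.8 kb from Srrm2, Eif4a3 was called higher at 0.17 and Pnn lower at -0.15. By edgeR, 42.9% of the elongin B partners, 22.2% of the THO and TREX subunits and 12.5% of the CDK1 genes were called. The share of all genes tested was 25.3%, and that of the Rnps1 partners lay just under it. The differences between the lists and all genes were not tested. The median fold changes were -0.06 for the elongin B partners and 0.06 for the THO and TREX subunits. They were 0.03 for the CDK1 genes and 0.03 for the Rnps1 partners.

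Over all genes tested, 13.6% were called higher and 11.7% lower. Read by side, the neighbours at lower coordinates had 5 genes called higher (33.3%) and 1 lower (6.67%) of 15 tested, with a median fold change of 0.17. Those at higher coordinates had 1 called higher and 5 lower of 10 tested, with a median of -0.21. By distance, 1 gene was called higher and 3 lower of the 9 tested under 100 kb, 4 higher and 1 lower of the 10 between 100 and 250 kb, and 1 higher and 2 lower of the 6 from 250 to 500 kb. Pdpk1, at 249 kb, moves to the farthest class if distance is taken between start sites. Of the 4 tested genes on the strand of Srrm2, Hcfc1r1 and Bicdl2 were called higher, and of the 21 on the other strand 4 were called higher and 6 lower. In the flanks from 500 kb to 1 Mb, 26 protein-coding genes were tested, of which Abca3 (0.57), Gfer (0.39) and Rnps1 (0.15) were called higher and Zfp40 (-0.24) and Zfp945 (-0.21) lower, or 19.2% in all. The difference between the window and its flanks was not tested.

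**Figure D3:**
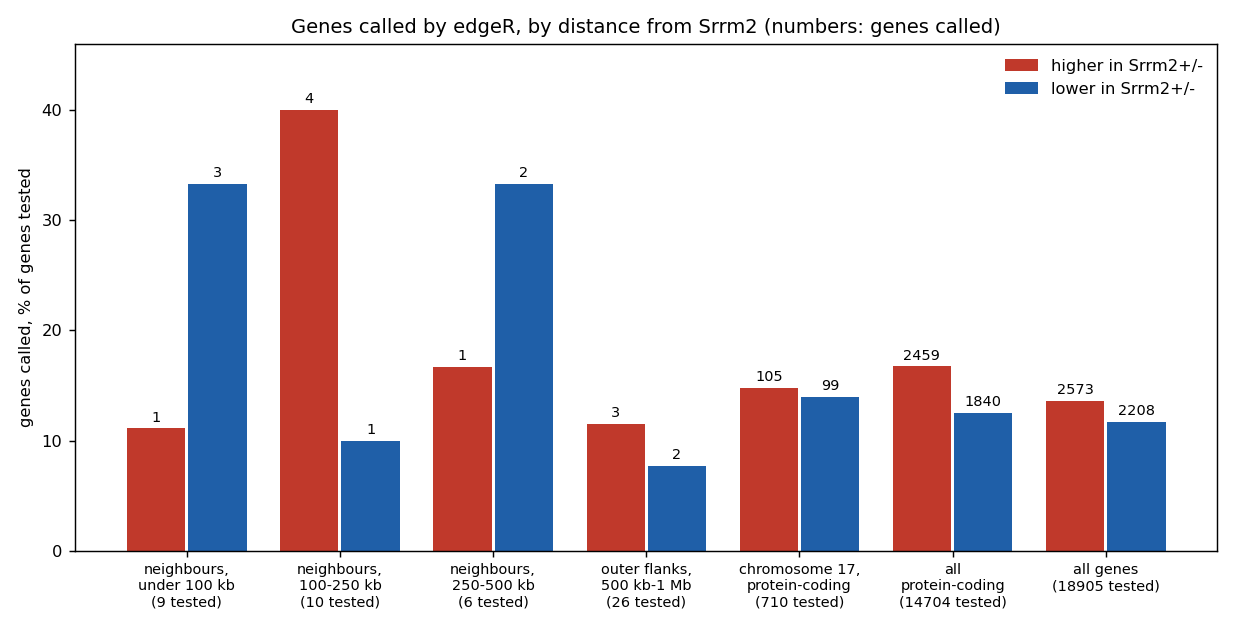
Genes called higher (red) or lower (blue) by edgeR as a percentage of the genes tested (y axis) in 3 distance classes of the neighbours, in the flanks from 500 kb to 1 Mb, on chromosome 17 and over the whole table; numbers above the bars count the genes called. The distance classes hold 9, 10 and 6 tested genes, so 1 gene moves a bar by 10 percentage points or more, while the flanks lie at 11.5% higher and 7.69% lower.

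The size of the fold change, whatever its sign, had a median of 0.23 over the 25 neighbours, against 0.17 over all protein-coding genes tested and 0.17 over those of chromosome 17. It was 0.47 for the 9 tested genes under 100 kb. A size of at least 0.5 was reached by 7 neighbours, or 28.0%, against 19.6% of protein-coding genes. Low genes have less precise fold changes, and among the 20 neighbours with a WT mean of at least 1 CPM the median size was 0.17, against 0.14 for protein-coding genes at that level. A size of at least 0.5 was reached by 5 of those 20, against 12.9% of protein-coding genes at that level. Across the 25 neighbours, distance and size of fold change had a Spearman rho of -0.50 and a Pearson r of -0.37, and distance and signed fold change had a rho of 0.07 and an r of -0.02. The level in WT, as CPM per kb of exon, had a rho of -0.44 and an r of -0.14 with the size. These points are genes measured in the same 6 libraries and are not independent, so the values are descriptions.

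Levels per kb of exon in WT spanned from 0.106 CPM for Mmp25 to 148 CPM for Elob, with a median of 3.88. The called neighbours lay along that whole range, from Mmp25 and Bicdl2 (0.229 CPM per kb) at the low end through Tnfrsf12a (3.24) to Hcfc1r1 (13.9), Pdpk1 (13.7), Ccnf (15.3) and Elob. Of the neighbours with a WT mean of at least 1 CPM, 4 were called higher and 6 lower of 20, while 30.5% of all genes at that level were called in either direction.

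**Figure D4:**
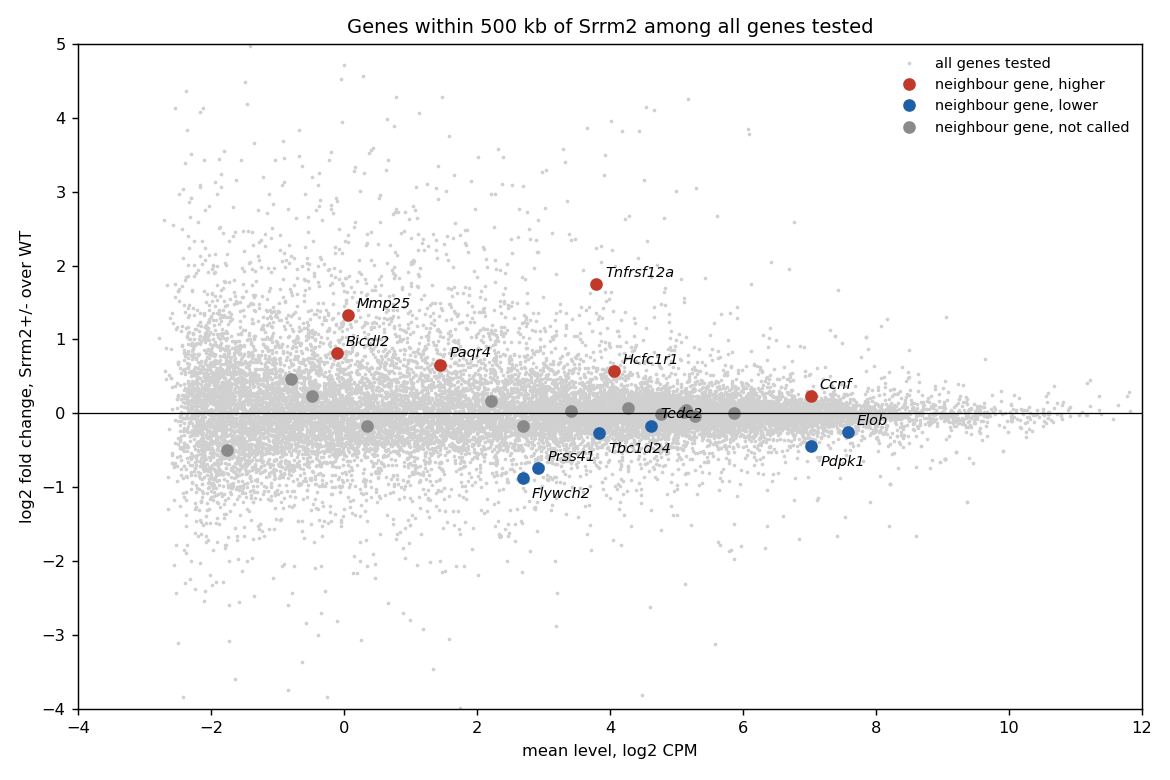
The log2 fold change (y axis) against the mean level in log2 CPM (x axis) for all genes tested (light grey) and the neighbours of Srrm2 (large points, coloured by the edgeR call); 37 points of the whole table lie outside the axes. Among the neighbours, Tnfrsf12a is the highest point and Flywch2 the lowest. How dense the cloud is around each point was not measured.

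Markers of other cell types were examined as well. The summed level of 6 primitive endoderm markers lay between 2.32 and 2.70 CPM in WT and between 2.54 and 3.57 CPM in Srrm2+/-. Dab2 was called higher and Sox17 was too low to test. The others were not called, with fold changes of 0.95 (SE 0.555) for Gata6, -0.0038 (SE 0.22) for Gata4, -0.77 (SE 0.29) for Sox7 and -0.39 (SE 0.40) for Pdgfra. The summed level of 6 trophoblast markers went from between 52.0 and 52.9 CPM to between 32.3 and 35.3 CPM. Nearly all of it was Tfap2c, which was called lower and is also used by embryonic stem cells. Eomes was called higher by edgeR but not by DESeq2 (adjusted p 0.0880). Elf5 at -0.33 (SE 0.27) and Gata3 at 0.38 (SE 0.23) were not called, and Cdx2 and Hand1 were too low to test. Cdx2 was at 0 in every WT library and between 0.0723 and 0.276 CPM in Srrm2+/-. The part of these shifts in the values of the neighbours was not tested.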

How the data were processed

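Per the labels and the study's methods, TruSeq Stranded total RNA libraries were sequenced as 75 bp paired reads and pseudo-aligned by the authors with kallisto 0.46.1 to the GENCODE M24 mouse transcriptome (mm10). The deposited values are unnormalized estimated counts per gene. Whether strand was used in the counting was not given in the sources used here, and reads from sequence that 2 genes share are apportioned by the estimate, so overlapping genes can exchange counts.

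Counts were rounded. The neighbours and gene lists were chosen with earlier results of these data known, and 1 gene of the lists is not reported here. Positions came from GENCODE M21 (42156 of 42450 identifiers matched). Distances run from gene end to gene end. Genes past edgeR's filterByExpr (minimum count 10, minimum total 15) were fitted with edgeR 4.0.16 in R 4.3.3 (TMM, glmQLFit, glmQLFTest, two-sided, genotype as the sole term). Standard errors are the log2 fold change divided by the square root of F. Alternatives used DESeq2 1.42.0, limma 3.58.1 (voom), other scalings and filters, other windows and each library left out. The procedure was tested on simulated data.

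Every called neighbour and the 3 tested ones nearest Srrm2 on each side are given in each library, and the others by range. Library pairs correlated at 0.985 or more within groups and at 0.975 or less between them, and none agreed within sampling noise. Deviations from the group means correlated between same-numbered libraries at -0.0337 to -0.0285, so no pairing was used. Intervals for a count of 0 cover counting error only. Promoter windows came from RefSeq (GRCm38.p6), and shared sequence was counted in words of 31 bases.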

Additional observations from a re-analysis of the deposited data

How the results depend on the processing

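Flywch2, Prss41, Tnfrsf12a, Hcfc1r1, Pdpk1 and Ccnf kept their call under all 13 refits (other scaling, filter or tool, replicate block, each library left out); the other 6 called neighbours lost it under at least 1, and no uncalled neighbour gained one. With each library left out in turn, 3 to 6 neighbours were called higher and 4 to 6 lower, genes called over the whole table numbered 3515 to 4122, Srrm2 ranged from -0.72 to -0.65 and the neighbours' median from -0.0042 to 0.022; the lowest count of 3 came without Srrm2+/- replicate 3. Requiring also a log2 fold change of at least 0.5 in size left 2293 genes over the whole table. It left 5 of the 6 higher neighbours and 2 of the 6 lower ones, Flywch2 and Prss41. With distance between start sites, 0 neighbours from 100 to 250 kb were called lower, because Pdpk1 moved to the next class. The replicate numbers share only a label: with the replicate block 4166 genes were called over the whole table, 4 neighbours higher and 5 lower, and Bicdl2 (adjusted p 0.0992), Mmp25 (0.0591) and Tedc2 (0.0711) lost their call. Uncalled neighbours near 0 changed sign when 1 library was left out, ranging from -0.000094 (without WT replicate 1) to 0.10 for Zscan10, from -0.0018 (WT 3) to 0.12 for Zfp13, from -0.015 (Srrm2+/- 3; -0.0080 without WT 2) to 0.022 for Kctd5, from -0.0042 (WT 1) to 0.094 for Zfp213, from -0.039 to 0.030 (Srrm2+/- 3, and 0.020 without WT 2) for Amdhd2 and from -0.14 (WT 1; -0.031 without Srrm2+/- 3) to 0.13 for Atp6v0c. Except where stated, the cause was not tested. Depth limits genes under 1 CPM, such as Prss33, Kremen2 and 1520401A03Rik.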

Other observations

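Of the non-coding genes of the window, 7 were tested. The processed pseudogene Gm5225, 199 kb from Srrm2, was called lower by edgeR. Its mean was 1.47 CPM (SD 0.373, n = 3) in the WT libraries and 0.743 CPM (SD 0.203, n = 3) in the Srrm2+/- libraries, and its log2 fold change was -0.99 (SE 0.27) at an adjusted p of 0.0251 over the whole table. The other 6 were not called. The antisense genes Gm16275, 9530082P21Rik and BC028777 had fold changes of -0.67 (SE 0.38), 0.12 (SE 0.18) and 0.71 (SE 0.43), the small nucleolar RNA Gm25092 had -1.09 (SE 0.41), the miRNA gene Mir5125 inside Srrm2 had -0.67 (SE 0.48) and Casp16-ps had 0.54 (SE 0.65). All 6 lay under 2 CPM in both groups.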
